A study of Homo sapiens with 2 samples.

Results

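The transcripts described here are those of 10 genes of the NOTCH pathway: the receptor genes NOTCH1, NOTCH2 and NOTCH3, the ligand genes JAG1, JAG2 and DLL1, the effector gene RBPJ, and the target genes HES1, HEY1 and HEY2. They were chosen by name with earlier results of these data known, and are 10 of the 38637 genes in the table. They were measured by poly(A)-selected RNA-seq in H1299, a line derived from a nodal metastasis of human non-small cell lung cancer, in 2 libraries with 1 per group. The control library is labelled wild type with no treatment, and its title ends in nc. The other library is labelled wild type with knockdown of PHF12 and its title carries the prefix si. PHF12 encodes a PHD finger protein found in a Sin3 and HDAC corepressor complex. The series asks how PHF12 acts on signalling in these cells.

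NOTCH receptors are single-pass membrane proteins that bind ligands of the Jagged and Delta families on neighbouring cells. Ligand binding exposes the receptor to cleavage by ADAM proteases and then by gamma-secretase, which frees the intracellular domain to enter the nucleus. There it binds RBPJ, a DNA-binding protein that otherwise recruits corepressors, and turns on genes such as HES1, HEY1 and HEY2. Those targets encode basic helix-loop-helix repressors, and HES1 is known to repress its own gene. In the lung, NOTCH signalling is known for holding back neuroendocrine fate, and in lung cancer it has been described both as promoting and as restraining growth.

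In the knockdown library 9 of the 10 genes had a log2 ratio below 0 (knockdown over control) and RBPJ alone lay above 0. With the deposited TPM in place of scaled counts NOTCH2 also lay just above 0, which leaves 8. The share below 0 among the 14559 genes measured, those with a mean of at least 1 count per 1000000 counts (CPM), was 51.6%. The target genes HES1 and HEY2 and the ligand gene DLL1 were at least 1.5-fold lower, against 2.29% of all genes measured, and none of the 10 was at least 1.5-fold higher, against 2.16%. HEY2 and DLL1 had a mean of 1 to 5 CPM, where 7.9% of genes were at least 1.5-fold lower. HEY2 passed the filter only through the control library, so its place among the lower genes depends on the filter. With a pseudocount of 1 CPM 1 of the 10 was at least 1.5-fold lower, and with a minimum of 5 CPM 1 of the 8 genes that passed. The 95% counting interval lay below 0 for 6 of them (HES1, HEY1, HEY2, NOTCH3, JAG2 and DLL1), against 20.9% of all genes measured, and above 0 for RBPJ, against 20.3%. It spanned 0 for NOTCH1, NOTCH2 and JAG1. The median log2 ratio of the 10 genes was -0.32 and that of all genes measured -0.01. With 1 library per group there is no replicate check and no test: the ratios compare these 2 libraries, not the conditions, and the intervals cover counting error only. A lower level can come from less RNA per cell or from fewer cells that make the transcript, which bulk libraries cannot tell apart.

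**Figure D1:**
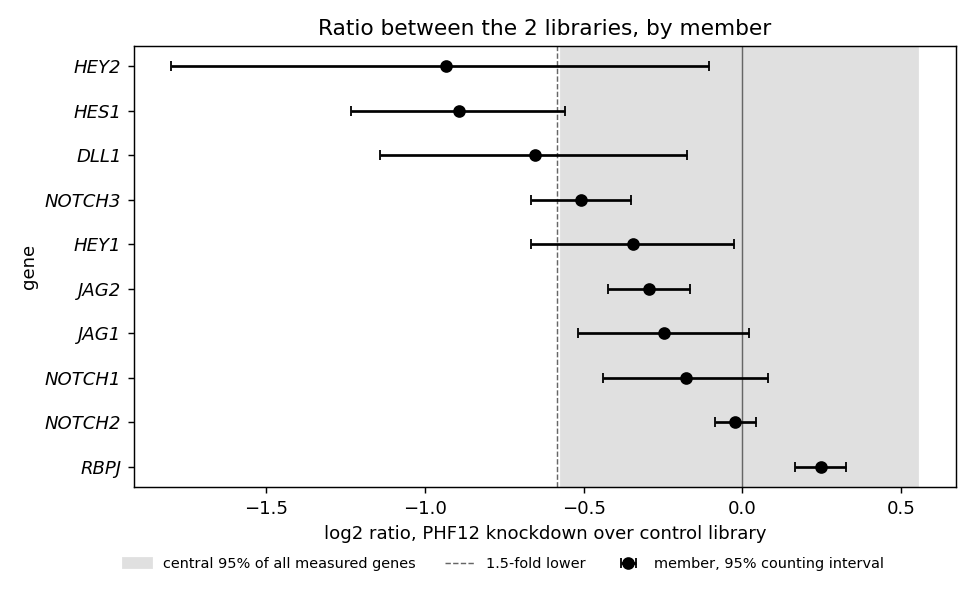
Log2 ratio of the knockdown over the control library for each of the 10 genes, with its 95% counting interval. The grey band holds the central 95% of all 14559 measured genes (-0.57 to 0.55) and the dashed line marks 1.5-fold lower; HEY2, HES1 and DLL1 lie left of that line, and RBPJ is the one gene right of 0.

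The libraries summed to 24740581 counts (control) and 26084594 counts (knockdown). PHF12 itself gave 947 counts in control cells and 756 after knockdown, a log2 ratio of -0.41 (-0.55 to -0.27). That ratio lay inside the central band of all genes measured (-0.57 to 0.55). It was close to that of HPRT1, the reference gene farthest from 0, at -0.38 (-0.48 to -0.29). Whether the knockdown lowered PHF12 was not tested, because each group has 1 library. The keratins KRT8 and KRT18 and the mesenchymal marker VIM were abundant in both libraries, while CDH1, PTPRC, CD3E, LUM and SFTPC had 0 counts in both, which allows up to 3 counts each per library. Summed TPM was 2.68 and 2.32 over 4 endothelial markers and 1.04 and 1.26 over 5 fibroblast markers. The sum over 5 blood cell markers, 257.6 and 320.7, came almost wholly from CD68, a lysosomal gene.

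HES1 and HEY2 stood lowest of the 10 genes, and the DNA next to their start sites is shown because both are direct targets of RBPJ. RefSeq (GRCh38.p14) gave promoter windows, from 250 bases before to 50 after an annotated start site, for 8 of the 10 genes, with 5 alternative starts for RBPJ. HEY1 and DLL1 had no window and were not searched. The motifs searched on both strands were TGGGAA (the RBPJ core), CGTGGGAA (a longer RBPJ site, which contains the core), CACNAG (the N box bound by HES proteins), CACGTG (an E box) and CACGCG (a class C site bound by HES and HEY proteins). The windows below are on the coding strand from 5′ to 3′, with every motif match in capitals. They are HES1 on the plus strand at chr3:194135898-194136197, HEY2 on the plus strand at chr6:125749382-125749681, and RBPJ, the one gene that was higher, at the second of its starts on the plus strand at chr4:26319496-26319795.
HES1: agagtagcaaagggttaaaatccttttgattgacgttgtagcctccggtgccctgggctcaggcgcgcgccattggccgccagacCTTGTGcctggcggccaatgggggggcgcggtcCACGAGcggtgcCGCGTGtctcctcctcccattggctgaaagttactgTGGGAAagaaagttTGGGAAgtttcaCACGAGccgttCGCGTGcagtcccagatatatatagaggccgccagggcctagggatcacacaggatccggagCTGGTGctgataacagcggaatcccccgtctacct
HEY2: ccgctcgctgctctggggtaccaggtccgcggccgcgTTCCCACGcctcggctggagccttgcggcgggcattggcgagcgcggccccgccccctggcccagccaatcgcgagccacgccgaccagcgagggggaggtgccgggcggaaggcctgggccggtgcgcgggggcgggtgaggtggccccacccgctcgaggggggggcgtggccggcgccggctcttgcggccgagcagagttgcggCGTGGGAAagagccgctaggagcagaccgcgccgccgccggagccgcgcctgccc
RBPJ: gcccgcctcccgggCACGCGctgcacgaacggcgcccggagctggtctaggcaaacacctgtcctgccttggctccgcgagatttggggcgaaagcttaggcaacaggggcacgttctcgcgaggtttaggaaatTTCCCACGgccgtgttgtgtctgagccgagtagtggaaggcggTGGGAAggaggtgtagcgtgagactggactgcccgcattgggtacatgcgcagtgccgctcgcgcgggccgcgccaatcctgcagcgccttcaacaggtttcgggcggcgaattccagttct

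The HES1 window held 2 RBPJ cores, TGGGAA, beginning at positions -84 and -70 and both on the coding strand. Positions give the first printed base of a match, and negative ones lie before the start site. It also held 4 N boxes and 2 class C sites, 8 matches in all and the most of the 12 windows. The core was found in 24.0% of the 35116 windows of the same length in the table and at least 2 times in 3.80%. HEY2 held the longer site CGTGGGAA at 2 places, beginning at -213 on the opposite strand and at -5 on the coding strand. That site was found in 0.826% of all windows, and 4 of the 35116 held it 2 or more times. At the start shown, RBPJ held 1 longer site, on the opposite strand at -115, and a further core at -72. No other RBPJ start had a core in its window. The HEY2 start site in RefSeq lies 1993 bases inside the gene start that the deposited table lists, and the RBPJ start shown lies 156288 bases inside.

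**Figure D2:**
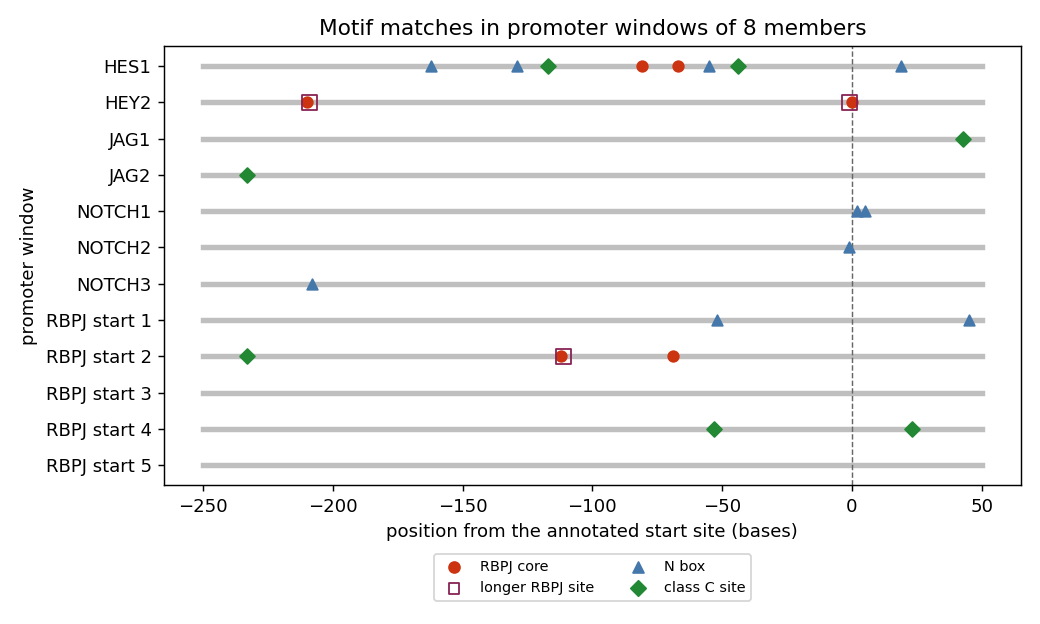
Motif matches in the promoter windows of 8 of the genes, by distance in bases from the annotated start site (dashed line); RBPJ has 5 annotated starts. RBPJ cores lie in the windows of HES1, HEY2 and the second RBPJ start, and HES1 carries the most matches, 8.

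The other windows held no RBPJ core. NOTCH1 held 2 N boxes, NOTCH2 and NOTCH3 1 each, and JAG1 and JAG2 1 class C site each. Of the other RBPJ starts, the first held 2 N boxes and the fourth 2 class C sites. N boxes were found in 38.0% and class C sites in 11.4% of all windows. CACGTG was in none of the 12 windows and in 7.26% of all. A match is a description of the letters and not a bound site. Across the transcriptome the 11239 measured genes with a window had a median log2 ratio of -0.01, and 2.09% were at least 1.5-fold lower. The 150 with the longer RBPJ site had a median of 0.01 and a share of 2.67%. The 3103 with the RBPJ core had a median of -0.002 and a share of 1.80%. That share was 1.79% with an N box, 1.55% with CACGTG and 1.56% with a class C site.

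Of HES1 and HEY2, the target genes at least 1.5-fold lower, HES1 had more reads. HES1, which lies on chromosome 3 from 194136148 to 194138732 (hg38, plus strand), gave 205 counts in control cells and 117 after knockdown. Its level per length was 14.6 TPM (transcripts per 1000000 transcripts; 95% counting interval 12.7 to 16.8) in control cells and 8.02 TPM (6.63 to 9.61) after knockdown, and these intervals did not overlap. The ratio of the libraries was 0.538 (0.425 to 0.679), a log2 ratio of -0.89 (-1.23 to -0.56), and 0.508% of all genes measured had a lower ratio. Among measured genes with a mean of 5 to 20 CPM, where HES1 lies at 6.39 CPM, 1.89% were at least 1.5-fold lower.

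HEY2 had few reads. It is encoded on the plus strand of chromosome 6 from 125747639 to 125762243 and gave 36 counts in control cells and 20 after knockdown, or 0.757 and 0.404 TPM. The ratio was 0.524 (0.287 to 0.930) and the log2 ratio -0.93 (-1.80 to -0.11), the widest interval of the 10 genes. Its mean of 1.11 CPM was close to the filter of 1 CPM. HEY2 passed that filter only through the control library, at 1.46 CPM against 0.765 CPM in the knockdown library. Of genes with a mean of 1 to 5 CPM, 7.9% were at least 1.5-fold lower.

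HEY1 lay between. It is encoded on the minus strand of chromosome 8 from 79764010 to 79767767 and gave 182 counts in control cells and 152 after knockdown. Its level was 8.25 TPM (7.09 to 9.54) in control cells and 6.61 TPM (5.60 to 7.75) after knockdown, with overlapping intervals. The log2 ratio was -0.34 (-0.66 to -0.03), which reached almost to 0. Summed over HES1, HEY1 and HEY2, the level was 23.6 TPM in control cells and 15.0 TPM after knockdown, a ratio of 0.636. HES1 made up 61.9% of that sum in control cells and 53.3% after knockdown, while HEY1 made up 34.9% and 44.0%.

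Of the receptor genes, NOTCH3 was lower and NOTCH2, the most abundant, was nearly level. NOTCH3, a receptor best known from vascular smooth muscle, lies on the minus strand of chromosome 19 from 15159038 to 15200995. It gave 774 counts in control cells and 577 after knockdown, or 10.03 TPM (9.33 to 10.8) and 7.17 TPM (6.60 to 7.78), with no overlap. The log2 ratio was -0.51 (-0.67 to -0.35), a ratio of 0.703, just outside the fold of 1.5 that DLL1 passed at a ratio of 0.636.

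NOTCH2 (chromosome 1, 119911553 to 120069662, minus strand) had 3841 and 4011 counts, or 36.7 TPM in both libraries, and a log2 ratio of -0.02 (-0.09 to 0.04). The depth was enough here to place the ratio between 0.942 and 1.03. NOTCH2 has partial copies, the NOTCH2NL genes, which are near-identical to its first exons. The 4 copies listed had between 55 and 159 counts each in a library, and how reads shared with them were counted is not stated, which leaves the NOTCH2 values uncertain to that extent. NOTCH1 (chromosome 9, 136494433 to 136546048, minus strand) had 256 and 240 counts, or 3.01 and 2.71 TPM. Its log2 ratio of -0.18 (-0.44 to 0.08) was not distinguishable from 0 at this depth. With NOTCH4 added, the receptor genes summed to 50.5 TPM in control cells and 47.4 TPM after knockdown. NOTCH2 held 72.6% and 77.4% of the sum, and NOTCH3 held 19.9% and 15.1%.

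The ligand genes were all below 0. JAG2, a Jagged ligand on the minus strand of chromosome 14 from 105140981 to 105168776, gave 1062 counts in control cells and 919 after knockdown. That was 20.6 TPM (19.4 to 21.9) and 17.1 TPM (16.0 to 18.3), with no overlap, and a log2 ratio of -0.29 (-0.42 to -0.16). JAG1, the other Jagged ligand (chromosome 20, 10637684 to 10673999, minus strand) had 244 and 218 counts, or 4.62 and 3.96 TPM. Its log2 ratio of -0.25 (-0.52 to 0.02) was close in size to that of JAG2, but on fewer reads the interval reached 0.

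DLL1, a Delta ligand on the minus strand of chromosome 6 from 170282200 to 170291078, gave 92 counts in control cells and 62 after knockdown. Its level was 2.73 TPM (2.20 to 3.35) and 1.77 TPM (1.36 to 2.27), with slightly overlapping intervals, and its log2 ratio was -0.65 (-1.14 to -0.17). The mean of DLL1 was 3.05 CPM, and 7.9% of genes with a mean of 1 to 5 CPM were at least 1.5-fold lower. The first 376 bases of DLL1 overlap FAM120B on the other strand, and no strand setting is given for the counting. FAM120B had 1401 and 1565 counts, its log2 ratio over the whole gene being 0.08, and reads in the shared bases were not counted apart. With DLL3 and DLL4 added, the ligand genes summed to 46.1 TPM in control cells and 37.8 TPM after knockdown, a ratio of 0.821. The composition of that sum changed little: JAG2 held 44.8% and 45.3%, and DLL3 38.3% and 38.6%.

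RBPJ was the exception. The gene for the DNA-binding effector of all NOTCH receptors lies on the plus strand of chromosome 4 from 26163458 to 26435131. It gave 2282 counts in control cells and 2872 after knockdown, or 36.4 TPM (34.9 to 37.9) and 44.0 TPM (42.4 to 45.6), with no overlap. The log2 ratio was 0.25 (0.17 to 0.33), a ratio of 1.19, and 87.1% of all genes measured had a lower ratio.

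**Figure D3:**
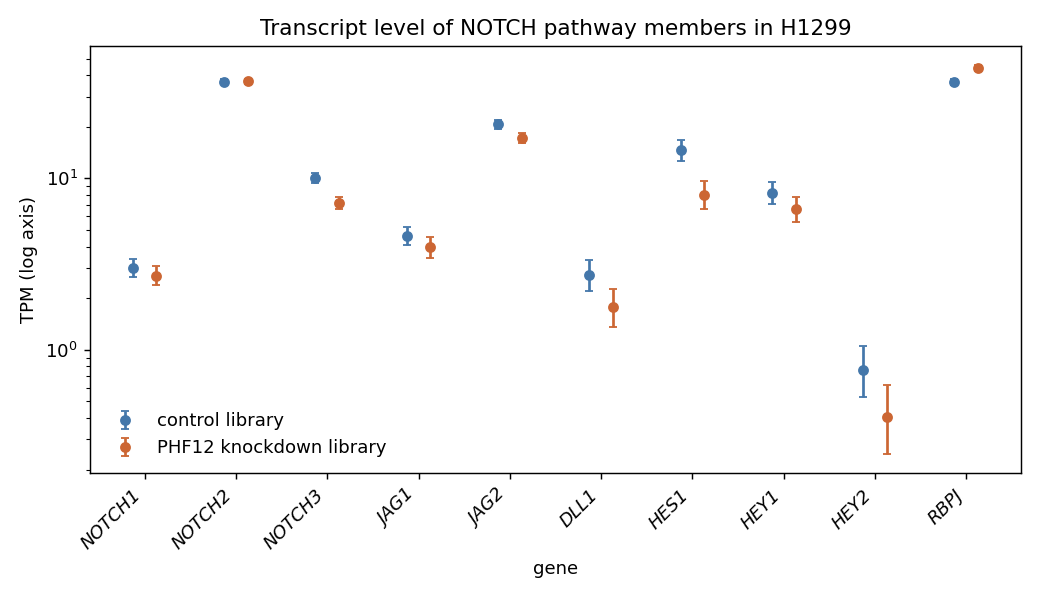
Level of each gene in TPM (log axis) in the control library (blue) and the knockdown library (orange), with 95% counting intervals. NOTCH2 stays at 36.7 TPM, RBPJ is higher in the knockdown library, and HES1, NOTCH3 and JAG2 are lower with intervals that do not overlap.

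By level per length, the order in the control library was NOTCH2, RBPJ, JAG2, HES1, NOTCH3, HEY1, JAG1, NOTCH1, DLL1 and HEY2. The neighbours NOTCH2 and RBPJ, NOTCH3 and HEY1, and NOTCH1 and DLL1 had overlapping counting intervals, and all other neighbours were apart. In the knockdown library RBPJ stood above NOTCH2 without overlap, and the rest of the order was the same. HES1, which stood clear of NOTCH3 in the control library, overlapped with NOTCH3 there, NOTCH3 overlapped with HEY1, and NOTCH1 and DLL1 were apart. In the order of log2 ratios each neighbouring pair overlapped from HEY2 up to NOTCH2, and only the step from NOTCH2 to RBPJ was without overlap.

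**Figure D4:**
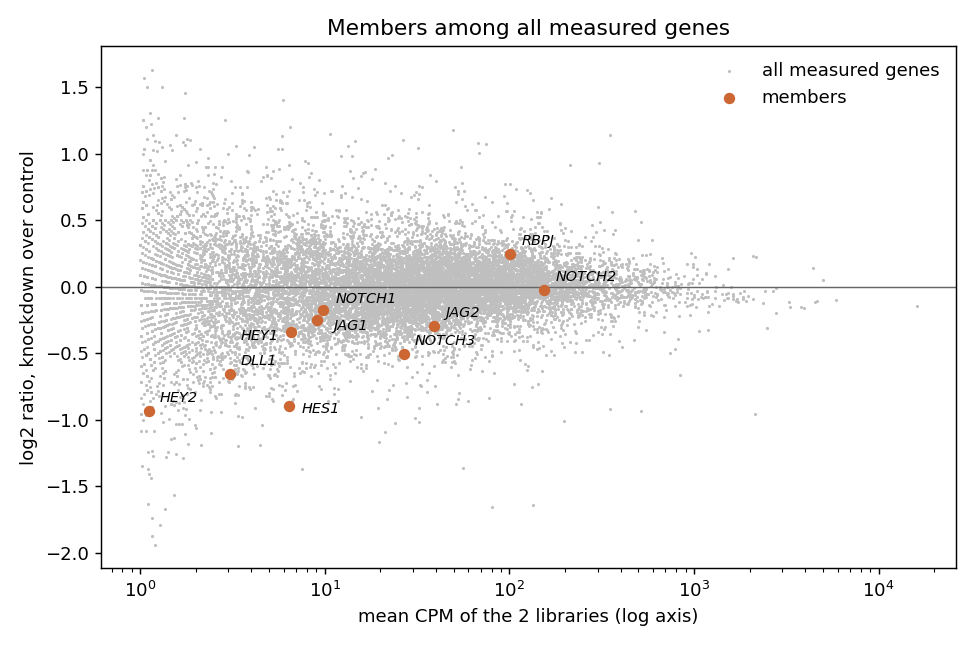
Log2 ratio against the mean level in CPM (log axis) for all 14559 measured genes (grey) and the 10 genes (orange). HES1 at 6.39 CPM lies at the lower edge of the genes of its level, while HEY2 at 1.11 CPM lies where the spread of all genes is widest.

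GC content moved with the ratio across the transcriptome. Over 12365 protein-coding genes, which are not independent replicates, Spearman's rho between transcript GC content and log2 ratio was -0.20. Of the 3091 genes richest in GC, those above 57.0% GC, 66.7% lay below 0 with a median log2 ratio of -0.08. NOTCH1 (62.9% GC), NOTCH3 (63.1%), JAG2 (64.0%) and DLL1 (58.3%) belong to those, and RBPJ (38.0%) to the 3092 genes poorest in GC. HES1, HEY1 and HEY2 lay between 47.3% and 49.9% GC, near the median of 48.5%. With a trend on GC content and transcript length removed, a setting chosen after the data were seen, the log2 ratio was -0.88 for HES1, -0.45 for NOTCH3, -0.22 for JAG2, -0.60 for DLL1 and 0.19 for RBPJ.

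The other genes of the pathway, in lists also chosen with earlier results known, lay on both sides of 0. Of 93 genes in 9 lists, 72 had at least 1 CPM on average, and 41 of these lay below 0 and 31 above 0, with a median log2 ratio of -0.03. At least 1.5-fold lower were 2 of them, against 2.29% of all genes measured, and at least 1.5-fold higher 1, against 2.16%. The counting interval lay below 0 for 23, against 20.9%, and above 0 for 14, against 20.3%.

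Of 8 measured genes that cleave the receptor, 3 lay below 0 and 5 above, against 51.6% of all genes measured below 0. The interval lay above 0 for 4 of them, against 20.3%. Their median was 0.13, and 0.08 with the trend on GC content and length removed. APH1B, a gamma-secretase subunit, gave 387 counts in control cells and 703 after knockdown, or 9.02 and 15.7 TPM, and a log2 ratio of 0.78 (0.60 to 0.96), the highest of all the lists. ADAM10, the protease of the first cleavage, stood at 0.20 (0.13 to 0.28), and the gamma-secretase subunits NCSTN at 0.26 (0.17 to 0.34) and PSENEN at 0.19 (0.12 to 0.27). ADAM10, NCSTN and PSENEN were named after their values were seen.

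Genes of ligand endocytosis and receptor turnover lay on both sides of 0, with 6 of 13 below, 7 above and a median of 0.06. MIB2, a ubiquitin ligase for ligands, had 1296 and 1005 counts, its log2 ratio being -0.45 (-0.57 to -0.33), and NEURL1B, of the Neuralized ligase family, had 201 and 271 counts, its log2 ratio being 0.35 (0.08 to 0.62). Among the genes of receptor maturation, 2 of 4 lay below 0 with a median of -0.04. The sugar transferase gene RFNG stood at -0.22 (-0.37 to -0.06) and shares 880 bases with GPS1 on the other strand, and POGLUT1, an O-glucosyltransferase, stood at -0.12 (-0.32 to 0.08). Of 6 other receptors, ligands and ligand-like genes 3 lay below 0 with a median of -0.04, which was -0.16 over the 5 genes with a minimum of 5 CPM. The secreted NOTCH-binding factor EGFL7 had 916 and 752 counts, its log2 ratio being -0.37 (-0.51 to -0.23).

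Coactivators and corepressors were mixed. Of 8 coactivator genes 5 lay above 0, with a median of 0.05, and MAML2, a Mastermind coactivator, stood at 0.26 (0.08 to 0.44). KAT2B, an acetyltransferase, stood at 0.13 (-0.02 to 0.27), with an interval that spanned 0. Of 16 corepressor genes 8 lay on each side of 0, with a median of -0.02, which was 0.004 with the deposited TPM. HDAC1, a histone deacetylase, had 2936 and 4330 counts, its log2 ratio being 0.48 (0.41 to 0.54), and TLE2, a Groucho corepressor bound by HES proteins, had 211 and 173 counts, its log2 ratio being -0.37 (-0.67 to -0.07).

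Other genes of the HES and HEY families and NRARP, listed by family and not only as NOTCH targets, were mostly below 0. Of 7 measured genes of the wider HES and HEY families and NRARP, 6 lay below 0, against 51.6% of all genes measured, and 2 had an interval below 0, against 20.9%. Their median was -0.16, and -0.04 with the trend on GC content and length removed; HES4 has 73.9% GC and HES6 68.4%. HES6, a family member known to counteract HES1, gave 596 counts in control cells and 475 after knockdown and a log2 ratio of -0.41 (-0.59 to -0.24). NRARP, a feedback inhibitor and a direct NOTCH target, stood at -0.16 (-0.71 to 0.39) on 59 and 56 counts, too few to place it, and HES5 had 0 counts in both libraries. HES4, NRARP and HES5 were named after their values were seen.

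The 6 measured genes of the list of further NOTCH targets all lay below 0, against 51.6% of all genes measured, and 5 had an interval below 0, against 20.9%. Their median was -0.32. The inhibitors of helix-loop-helix factors led them: ID3 had 373 and 218 counts, its log2 ratio being -0.86 (-1.11 to -0.61), and ID1 had 654 and 463 counts, its log2 ratio being -0.58 (-0.76 to -0.41). CCND1, the G1 cyclin D, stood at -0.33 (-0.36 to -0.29). Each of these genes also has inputs other than NOTCH. The list was chosen with earlier results of these data known, so its shares describe the list and do not test NOTCH output.

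Of the genes that HES1 is known to repress, none with at least 1 CPM was higher in the knockdown library, where HES1 was lower. Whether their levels relate to that of HES1 was not tested. Of 10 in the list, 4 had at least 1 CPM on average, and all of those lay below 0, against 51.6% of all genes measured. The interval lay below 0 for 2 of the 4, against 20.9%, and spanned 0 for the others. Their median was -0.27, and -0.50 over the 2 genes with a minimum of 5 CPM. CDKN1C, the cell cycle inhibitor p57, had 166 and 97 counts, its log2 ratio being -0.86 (-1.24 to -0.49), close to that of HES1 itself. NEUROG2, a proneural factor, stood at -0.38 (-1.07 to 0.30) on 43 and 35 counts. The 10 reference genes had a median of -0.05. HPRT1 lay farthest from 0 at -0.38 (-0.48 to -0.29), between the ratios of HEY1 and NOTCH3. Highest of them was ACTB at 0.22 (0.20 to 0.24), near the ratio of RBPJ. The interval lay below 0 for 4 reference genes, against 20.9% of all genes measured, and above 0 for 3, against 20.3%.

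**Figure D5:**
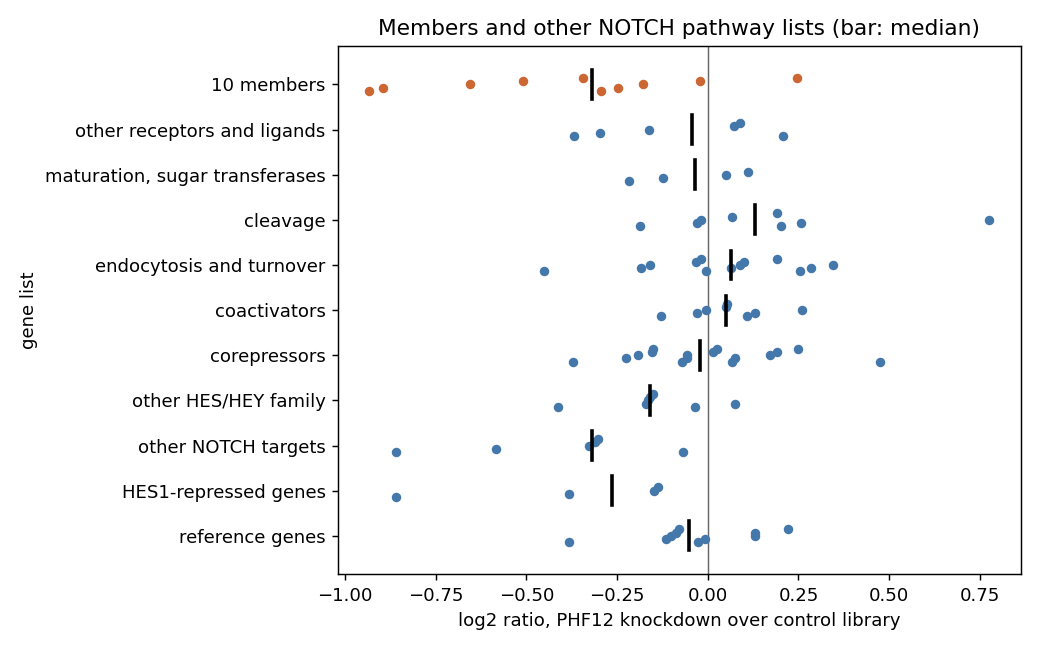
Log2 ratio of the 10 genes (orange) and of the measured genes in each pathway list and in the reference genes (blue), with the median as a bar. The medians of the 10 genes (-0.32) and of the other NOTCH targets (-0.32) lie lowest, and the cleavage genes (0.13) highest.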

How the data were processed

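RNA-seq was analysed in 2 libraries of H1299, 1 control and 1 PHF12 knockdown, grouped by the treatment label, with table columns matched to samples by title. HISAT2, HTSeq and the build hg38 are named in the submitters' processing notes, and the versions, counting mode and strand setting are not stated there. The authors deposited raw counts per gene and TPM values, per the file headers, and TPM rebuilt from counts and listed lengths differed by at most 1e-06.

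TMM factors from edgeR 4.0.16 (R 4.3.3) were 0.997 (control) and 1.00 (knockdown). CPM used the scaled sizes, genes averaging at least 1 CPM were kept, and ratios carry no pseudocount. Intervals of ratios are exact conditional Clopper-Pearson 95% intervals and those of levels exact Poisson intervals. Both cover counting error only, and reads without molecular identifiers are not independent molecules. No p-value was made. The ratio and interval code was tested on simulated data.

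Genes named from the lists are those with a log2 ratio at least 0.32 from 0, at most 6 a list, or the 2 farthest where none was. The members and lists were chosen with earlier results of these data known. Promoters are from RefSeq, and transcripts for GC content and 3′ UTRs from GENCODE release 29. Python 3.11.15, numpy 2.4.6, pandas 2.3.3, scipy 1.17.1, matplotlib 3.10.9 and, for an alternative, DESeq2 1.42.0 were used.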

Additional observations from a re-analysis of the deposited data

How the results depend on the processing

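All 70 log2 ratios of single members under other settings stayed within the counting interval of the reported value. These settings were scaling by totals, DESeq2 size factors, pseudocounts of 0.5 and 1 CPM, the deposited TPM, a thinned knockdown library and removal of a GC and length trend, the last chosen after the data were seen. HES1 ranged from -0.91 to -0.77, HEY2 from -0.94 to -0.48 and RBPJ from 0.19 to 0.27. The median of the members ranged from -0.33 to -0.27. NOTCH2 passed to above 0 only with the deposited TPM, by 0.003, leaving 8 members below 0. Members at least 1.5-fold lower numbered 3, but 2 with a pseudocount of 0.5 CPM, and 1 both with a pseudocount of 1 CPM and with a minimum of 5 CPM, under which 8 members were tested. At a log2 ratio of -0.32 or lower were 5 members, and at least 2-fold lower 0. Over all genes, 333 lower and 314 higher became 205 and 193 with 0.5 CPM added, 132 and 142 with 1 CPM added, 1899 and 1910 without the filter, 113 and 122 with a minimum of 5 CPM, 1370 and 1205 at a log2 ratio of 0.32 and 46 and 48 at 2-fold, with 189 higher among protein-coding genes. The median of the reference genes moved to -0.028 with TPM, and that of the corepressors passed from -0.02 to 0.004. With the GC and length trend removed the other HES and HEY genes moved from -0.16 to -0.04, the cleavage genes from 0.13 to 0.08 and the maturation genes from -0.04 to -0.002. With a minimum of 5 CPM the other receptors and ligands moved from -0.04 to -0.16, and the genes repressed by HES1 from -0.27 to -0.50 on 2 genes. The causes were not tested. No member whose interval lay on one side of 0 changed sign. No paired analysis was possible because each group has 1 library. Depth limits HEY2, DLL1, HES1 and HEY1 most, whose intervals are the widest of the 10.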

Other observations

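Words of 7 bases that earlier work on these data found over-represented in the 3′ UTRs of lower genes (ACATCGA and CATCGAA) and of higher genes (TCGGAGA and ATCGGAG) were looked up in the 10 NOTCH pathway genes. All 10 had an annotated 3′ UTR in GENCODE release 29, and none held any of the 4 words (0 for lower and 0 for higher genes). Among 12322 measured protein-coding genes with a 3′ UTR, 2.71% held one found in lower genes and 3.10% one found in higher genes. NEURL1B, which was higher, and PHF12, which was lower, each held one found in higher genes, while neither HES6, ID1, ID3, CDKN1C nor APH1B held any of these words.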
